A study of Mus musculus with 2 samples.

Results

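Aminoacyl-tRNA synthetases were followed in blood stem and progenitor cells of tumour-bearing mice. The set holds 36 genes of the 31053 in the count tables, 20 that encode cytosolic enzymes and 16 that encode mitochondrial ones, whose symbols carry the suffix 2. They were chosen by enzyme family and not by their values, and all 36 were matched by Ensembl identifier. RNA was measured by droplet single-cell sequencing of LSK cells, a gate of lineage-low or negative cells with Sca1 and high c-Kit that holds blood stem cells and multipotent progenitors. The spleen and the bone marrow each gave 1 library. All mice were C57BL/6, 6 to 8 weeks old at injection, and carried an orthotopic tumour from 750000 Hepa1-6 cells, a mouse hepatoma line, placed in the left liver lobe in 25 µl. The labels give no number of mice per library, and mice without a tumour were not analysed here.

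A synthetase joins an amino acid to its own tRNA, and the charged tRNAs then feed the ribosome. The cytosol and the mitochondrion have separate enzymes for most amino acids, all encoded in the nucleus, while Gars and Kars each supply both compartments. In mammals, 8 of the cytosolic enzymes are held in a multisynthetase complex by the scaffold proteins Aimp1, Aimp2 and Eef1e1, and many cytosolic synthetase genes are known targets of ATF4, the transcription factor that is translated when amino acids run short or when PERK senses stress in the endoplasmic reticulum. PERK in splenic progenitors is the subject that the series names.

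The spleen library held 6546 cells with a median of 9978 UMIs (unique molecular identifiers, each standing for 1 captured transcript molecule), and the bone marrow library held 10088 cells with a median of 5991. The libraries shared 16 cell barcodes. The gate's own transcripts were present, Kit at 225 CPM (the gene's UMIs scaled to the library's total) in spleen and 273 in bone marrow and Ly6a, which encodes Sca1, at 80.6 and 70.5 CPM. Cells of other kinds were present as well. The summed level of 7 dendritic cell markers was 18194 CPM in spleen and 1101 in bone marrow, that of 6 T cell markers 388 and 3.88 CPM, and that of 6 mast cell and basophil markers 805 and 25.4 CPM. The 5 hepatocyte and tumour markers summed to 2.0 CPM in spleen (172 UMIs) and 3.77 CPM in bone marrow (278 UMIs), nearly all from Afp and Apoa1, with Alb and Serpina1a at 0 UMIs in both. With 1 library per tissue no difference could be set against replicates, so no test was run. Every interval below is a 95% interval that covers counting error alone, and tissue, sort and library differ together.

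The promoters of the set were read first, because they hold the sites through which ATF4 and other factors are known to act. RefSeq windows (GRCm38.p6) of 300 bases, 250 before and 50 after a transcription start, were at hand for 26 of the 36 genes, 12 cytosolic and 14 mitochondrial. The C/EBP-ATF response element, searched as TGATGNAA on both strands, stood in 5 of the 12 cytosolic windows and in 0 of the 14 mitochondrial ones, against 4.51% of 27025 genes. Among them were Gars, Iars, Tars and Yars, whose enzymes charge the tRNAs of glycine, isoleucine, threonine and tyrosine. The sites of these 4 are shown 5′ to 3′ on the gene's strand with the element in capitals.

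Gars: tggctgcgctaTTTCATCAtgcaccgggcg
Iars: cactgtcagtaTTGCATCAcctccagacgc
Tars: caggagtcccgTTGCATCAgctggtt
Yars: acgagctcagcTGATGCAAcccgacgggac

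The Gars site is at chr6:55037960-55037989 (+), 30 bases upstream of the start. The Iars site at chr13:49682126-49682155 (+) and the Yars site at chr4:129189895-129189924 (+) lie just inside the transcript, and the Tars site at chr15:11399659-11399684 (−) lies 15 bases upstream. The E-box CACGTG, the site of MYC and its relatives, stood in 4 of the 12 cytosolic windows (among them Farsb, Iars and Tars) and in 1 of the 14 mitochondrial ones (Ears2), against 8.09% of genes. The element GCATGCGC of NRF1, a regulator of nuclear genes for mitochondrial proteins, had the opposite distribution, with 0 of 12 cytosolic windows and 3 of 14 mitochondrial ones, against 3.05% of genes. It is shown in capitals for the enzymes that charge mitochondrial arginine and tryptophan tRNAs.

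Rars2: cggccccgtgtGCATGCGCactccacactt
Wars2: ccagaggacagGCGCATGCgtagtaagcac

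The Rars2 site is at chr4:34614895-34614924 (+) and the Wars2 site at chr3:99141015-99141044 (+), and Vars2, the valine enzyme, holds the element at 2 places. A match describes these letters in these windows and does not show that a factor binds there.

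The first comparison asked whether the set differed between spleen and bone marrow over all cells. The cytosolic synthetases together made up 1456 CPM in spleen and 1197 CPM in bone marrow, a ratio of 1.22 (1.21 to 1.23). All 20 passed the filter of a mean of at least 10 CPM, 2 of them were at least 1.5-fold higher in spleen, 0 were at least 1.5-fold lower, and 18 lay between. Among all 8644 genes past the filter the corresponding shares were 10.8% higher and 18.3% lower, so a count of 2 of 20 is near the background under this scaling. It was 8 of 20 with TMM scaling, against 18.7% of genes, and 4 of 20 with ratios centred on the median gene, against 14.5%. As a group the cytosolic members stood above the median gene, with 18 of 20 log2 ratios above 0, against 3615 of 8644 genes, and a median log2 ratio of 0.33, against -0.11 for all genes. Relative to that all-gene median, the cytosolic median was 0.44.

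Gars, the glycine enzyme, stood at 82.9 CPM in spleen (81.0 to 84.9) and 50.0 CPM in bone marrow (48.4 to 51.6), a ratio of 1.66 (1.59 to 1.73). Hars, the histidine enzyme, stood at 50.9 CPM in spleen (49.4 to 52.4) and 30.6 CPM in bone marrow (29.4 to 31.9), also a ratio of 1.66 (1.58 to 1.75). The genes Hars and Hars2 overlap at their starts on opposite strands, and the part of reads from that overlap was not tested. The counting intervals of the libraries do not overlap for Gars or for Hars. Thinning to 3700 UMIs per cell left out 672 spleen and 1007 bone marrow cells under that depth. In the thinned cells the ratios were 1.32 for Gars and 1.18 for Hars, under the 1.5-fold limit. Of the cytosolic members 0 of 20 passed it (background 7.73% higher). Mars, which charges methionine tRNA for initiation as well as elongation, followed at 28.0 CPM in spleen and 19.49 in bone marrow, a ratio of 1.44 (1.35 to 1.54). Tars (threonine) had a ratio of 1.41 (1.35 to 1.47) and Wars (tryptophan) 1.38 (1.30 to 1.48). The others lay in between, with Lars (leucine) at 1.35, Rars (arginine) at 1.31, Kars (lysine) at 1.27, Nars (asparagine) at 1.23 and Dars (aspartate) at 1.13. Eprs, a single protein that charges both glutamate and proline tRNAs, stood at 185 CPM in spleen and 154 in bone marrow, a ratio of 1.21 (1.18 to 1.23).

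At the other end, Farsa, the alpha subunit of phenylalanyl-tRNA synthetase, stood at 69.3 CPM in spleen and 70.6 in bone marrow, a ratio of 0.982 (0.946 to 1.02). Its partner Farsb, the beta subunit, stood at 36.9 and 27.1 CPM, a ratio of 1.36 (1.29 to 1.44), so the genes for the subunits of 1 enzyme did not move alike. Vars (valine) stood at 169 CPM in spleen and 170 in bone marrow, a ratio of 0.998 (0.974 to 1.02), and Qars (glutamine) had a ratio of 1.08 (1.04 to 1.12).

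Of the 16 mitochondrial members 10 passed the filter, and 1 higher and 1 lower of 10 are near or under the 10.8% and 18.3% of all genes. Yars2, the mitochondrial tyrosine enzyme, was the 1 member at least 1.5-fold higher, at 19.8 CPM in spleen (18.8 to 20.7) and 10.2 CPM in bone marrow (9.51 to 10.98), a ratio of 1.93 (1.77 to 2.11). Lars2, the mitochondrial leucine enzyme, was the 1 member at least 1.5-fold lower, at 134 CPM in spleen (131 to 136) and 446 CPM in bone marrow (441 to 451), a ratio of 0.300 (0.293 to 0.306). The other 8 lay between, from Cars2 (cysteine) at a log2 ratio of -0.29 to Rars2 at 0.24. Mars2, which charges mitochondrial methionine tRNA, had a ratio of 1.18 (1.08 to 1.29), and Hars2 (histidine) a ratio of 0.934 (0.864 to 1.01). Pars2, Nars2, Ears2, Wars2, Sars2 and Aars2 stayed under the filter, with levels of 4.97 to 8.93 CPM in spleen and 5.38 to 9.90 CPM in bone marrow and ratios of 0.889 (Pars2) to 1.13 (Aars2).

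**Figure D1:**
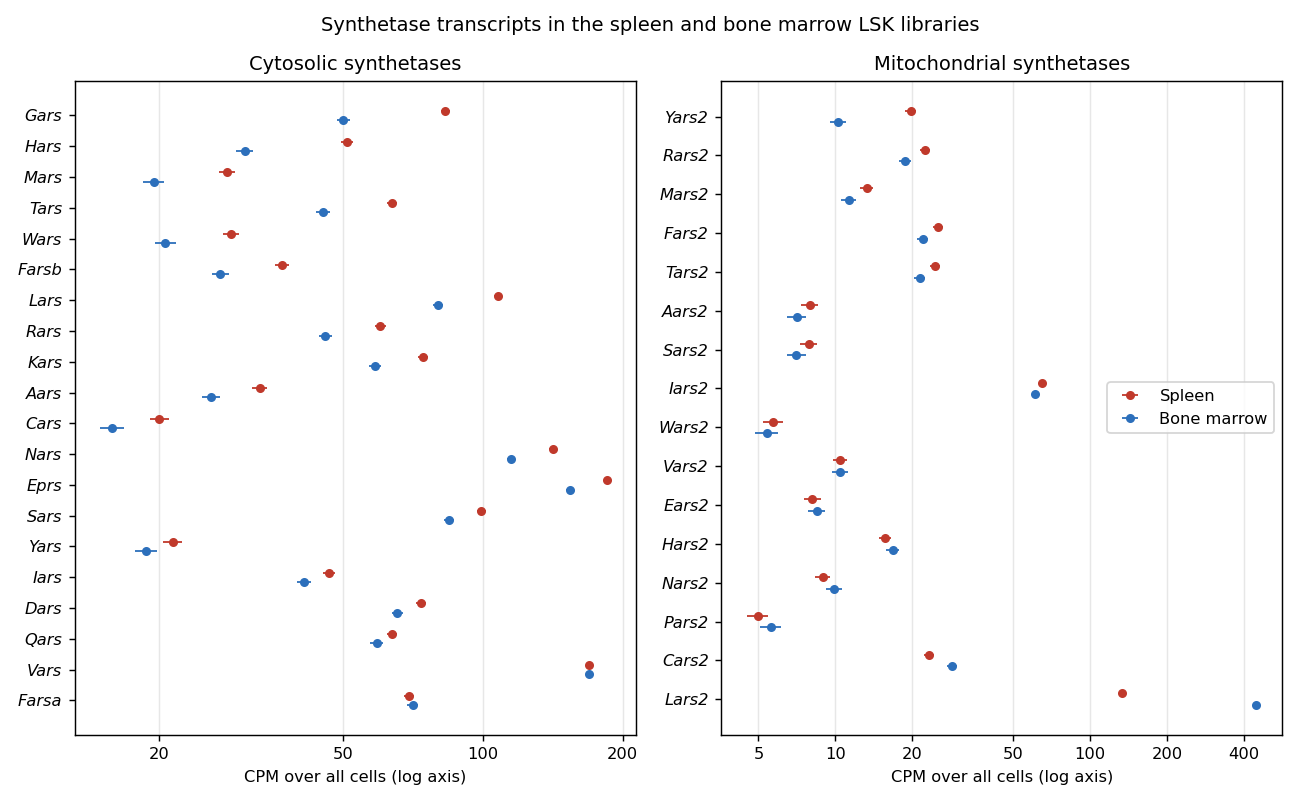
CPM of each synthetase over all cells of the spleen (red) and bone marrow (blue) libraries on a log axis, with exact Poisson 95% intervals, genes sorted by their log2 ratio. Gars and Hars lead the cytosolic panel at a ratio of 1.66 each, and Lars2 stands at 134 CPM in spleen against 446 in bone marrow.

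Lars2 alone decided the direction of the mitochondrial sum. With it, the 16 members made up 397 CPM in spleen and 691 CPM in bone marrow, a ratio of 0.574 (0.566 to 0.582). Without it, the remaining 15 made up 263 CPM in spleen and 244 in bone marrow, a ratio of 1.08 (1.06 to 1.10). Lars2 held 33.7% of the mitochondrial synthetase UMIs in spleen and 64.6% in bone marrow. The ratio of cytosolic to mitochondrial UMIs was therefore 3.67 in spleen and 1.73 in bone marrow with Lars2, but 5.54 (5.46 to 5.62) and 4.90 (4.82 to 4.98) without it.

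The next question was which cells carried the cytosolic difference. The authors' cell table puts each cell in 1 of 8 clusters, of which 7 had at least 100 cells in each library. Cluster MEP, which carried red cell progenitor genes (8 erythroid markers summed to 3867 CPM in spleen and 2816 in bone marrow, against 65.7 and 56.4 CPM in HSC-1), had the highest cytosolic sum in both tissues. It held 13.6% of the cells and 36.8% of the UMIs in spleen, against 3.54% and 5.69% in bone marrow. When the MEP cells were left out, the cytosolic sum was 1060 CPM in spleen and 1149 CPM in bone marrow. The ratio was 0.923 (0.913 to 0.932), and the count at least 1.5-fold higher was 0 of 20 (background 8.35% higher and 13.9% lower). On the log2 scale 18 of 20 members lay below 0, at a median of -0.12, against -0.15 for all genes, so they stood close to the median gene. When both libraries were given the same makeup of clusters, the average of theirs, the cytosolic ratio was 0.984. The cells outside MEP carried 28298 CPM of dendritic cell markers in spleen and 1153 CPM in bone marrow. When the labelled immune cells were left out together with MEP, a setting chosen after seeing the data, the direction turned. The cytosolic sum was then 1182 CPM in spleen and 1149 CPM in bone marrow, a ratio of 1.03 (1.01 to 1.04), over 2088 spleen cells and 9605 bone marrow cells. Of the 20 members 0 passed 1.5-fold (background 1.59% higher) and 14 lay above 0, with Gars at a ratio of 1.16 and Hars at 1.05. The cytosolic median log2 ratio was 0.05 in this setting, against -0.02 for all genes.

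Leaving out the cells that the authors' reference labels call dendritic, macrophage, monocyte, mast, basophil, T, NK or B cells acted the other way. It kept 2969 of 6546 spleen cells and 9962 of 10088 bone marrow cells, so MEP weighed more in what was left of the spleen. The cytosolic ratio was then 1.47 (1.45 to 1.48), and 10 of 20 members were at least 1.5-fold higher, against a background of 14.4% higher and 23.8% lower.

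Within clusters, spleen and bone marrow were close. In HSC-1, a cluster named for blood stem cells, the cytosolic sum was 991 CPM in spleen and 999 CPM in bone marrow. The ratio was 0.992 (0.970 to 1.01), and 0 of 19 measured members passed 1.5-fold in either direction (background 4.96% higher and 5.48% lower). Gars stood there at 37.6 CPM in spleen and 34.1 CPM in bone marrow, a ratio of 1.10 (0.978 to 1.24), and Hars at 21.8 and 23.8 CPM, a ratio of 0.918 (0.787 to 1.07), so neither kept the 1.66 seen over all cells. Dendritic cell markers summed to 13820 CPM in HSC-1 of the spleen and 740 CPM in HSC-1 of the bone marrow. Without the labelled immune cells the cytosolic sum of HSC-1 was 1007 CPM in spleen and 999 CPM in bone marrow. The part of those cells in the ratios of single members was not tested. Over all HSC-1 cells Lars, the cytosolic leucine enzyme, had the highest cytosolic ratio, 1.17 (1.07 to 1.28), and Farsb the lowest, 0.817 (0.694 to 0.960). Fars2 (mitochondrial phenylalanine) stood at 1.27 (1.09 to 1.47). In HSC-2 the sum ratio was 0.978 and 0 of 20 cytosolic members passed (1.67% higher, 2.77% lower), with Aars lowest at 0.720 (0.602 to 0.858) and Vars highest at 1.14 (1.07 to 1.22). In HSC-3 the sum ratio was 0.970 (0.945 to 0.995) and again 0 of 20 passed (5.77% higher, 8.77% lower), with Mars lowest among cytosolic members at 0.754 (0.622 to 0.910) and Gars highest at 1.12 (0.999 to 1.26). Over all HSC-3 cells dendritic markers summed to 14036 CPM in spleen and 729 CPM in bone marrow. The HSC-3 sum ratio turned to 1.10 (1.06 to 1.13) without the labelled immune cells. The part of those cells in the other values of HSC-3 was not tested.

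In MEP the cytosolic sum was 2137 CPM in spleen and 1990 CPM in bone marrow, a ratio of 1.07 (1.05 to 1.10). None of the 20 passed 1.5-fold (7.46% of genes higher, 13.5% lower), although 15 of 20 were above 0 with a median log2 ratio of 0.16, against -0.02 for all genes. Tars had the highest ratio at 1.30 (1.16 to 1.47) and Iars the lowest at 0.871 (0.775 to 0.981), with Hars at 1.29 (1.15 to 1.46) and Gars at 1.14 (1.04 to 1.25). Among the mitochondrial enzymes, Yars2 was at 34.8 CPM in the spleen and 23.1 CPM in the marrow cells of this cluster, a ratio of 1.51 (1.22 to 1.88), and Fars2 at 27.9 and 18.8 CPM, a ratio of 1.48 (1.18 to 1.89). On the log2 scale with 1 CPM added both lay under the 1.5-fold limit. Cell cycle genes also differed within MEP, where 5 of 6 mitosis genes were at least 1.5-fold higher in spleen, among them Ube2c at 275 CPM in spleen and 67.2 in bone marrow. Their part in the MEP values was not tested. Under the reference labels Ery-1 and Ery-2, taken up below, the cytosolic sum was lower in spleen than in bone marrow.

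The remaining clusters pointed to opposite sides. In LP, whose T cell markers summed to 3653 CPM in spleen and 31.4 in bone marrow, the cytosolic ratio was 1.12 (1.08 to 1.16), led by Yars (tyrosine), the 1 member past 1.5-fold (background 8.9% higher and 10.7% lower), at 1.66 (1.14 to 2.45) and Aars at 1.45 (1.08 to 1.96). In DCP it was 0.921 (0.884 to 0.959), from Farsa at 0.575 (0.467 to 0.706) to Cars (cysteine) at 1.78 (1.22 to 2.64), the members past 1.5-fold against 32.5% of genes lower and 13.7% higher. In MP it was 0.817 (0.768 to 0.870), with Cars at 0.428 (0.287 to 0.662) and 5 cytosolic members at least 1.5-fold lower of 20 (background 29.7% lower and 8.03% higher). Hars was the 1 cytosolic member of MP at least 1.5-fold higher, at 22.0 CPM in spleen and 14.2 CPM in bone marrow, but its ratio of 1.55 had an interval of 0.913 to 2.87. MP held 1413 spleen cells and 118 bone marrow cells. The dendritic markers in it summed to 65764 CPM in spleen and 29081 CPM in bone marrow, with 5 of 7 at least 1.5-fold higher, and in DCP to 47440 and 781 CPM. Without the labelled immune cells the DCP ratio was 1.02 (0.946 to 1.10), over 46 spleen cells and 375 bone marrow cells, and MP kept 4 spleen cells. LP kept 96 of its 693 spleen cells and 757 of its 770 bone marrow cells.

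**Figure D2:**
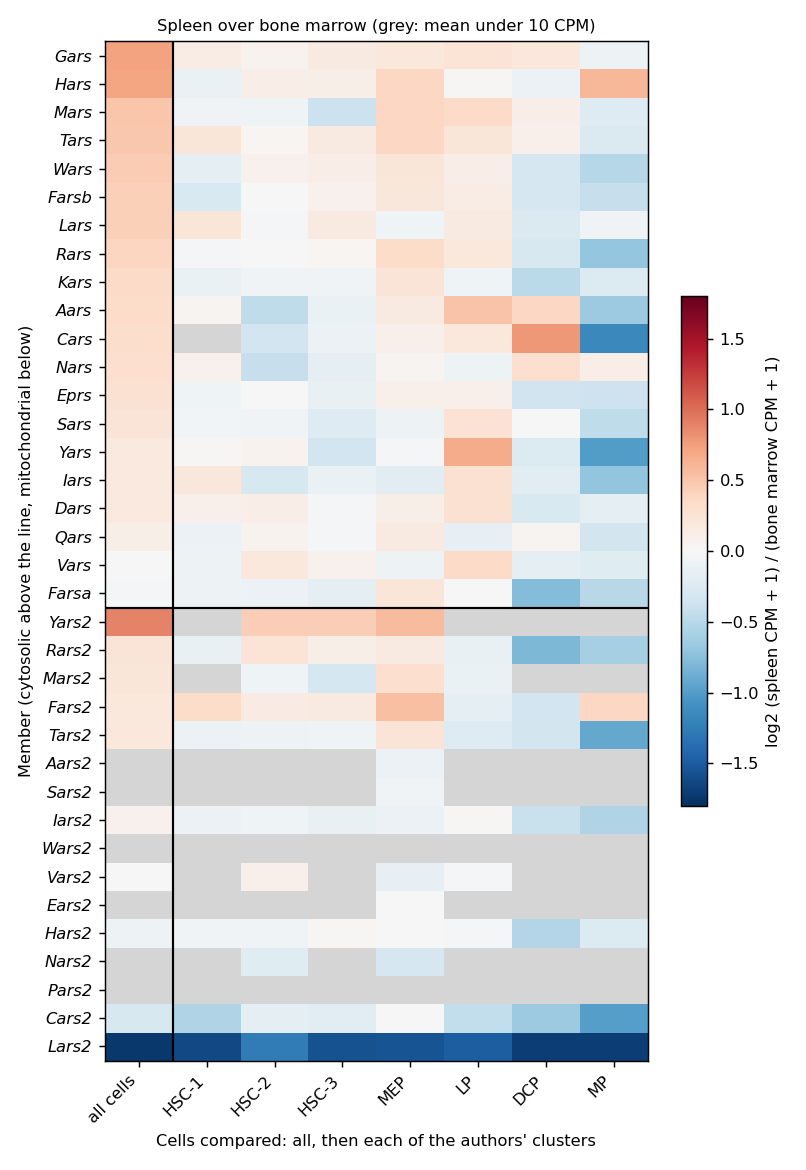
Log2 ratio of spleen over bone marrow for each synthetase (rows, cytosolic above the line and mitochondrial below) over all cells and within the 7 clusters with at least 100 cells in each library (columns); grey marks genes with a mean under 10 CPM. Gars and Hars, at 1.66 over all cells, stand at 1.10 and 0.918 in HSC-1, whereas Cars in DCP (1.78) and Yars in LP (1.66) are a deeper red than over all cells, and the Lars2 row is blue in every column.

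Lars2 was the exception, since it was lower in spleen in all 7 clusters. It stood at 175 CPM in spleen and 540 CPM in bone marrow in HSC-1, a ratio of 0.324 (0.309 to 0.340). In MEP it stood at 112 and 333 CPM, a ratio of 0.338 (0.317 to 0.360), and in LP at 199 and 557 CPM, a ratio of 0.357 (0.334 to 0.383). The smallest difference was in HSC-2, at 155 CPM in spleen and 371 in bone marrow, a ratio of 0.417 (0.394 to 0.442). In every cluster the spleen interval lay below the bone marrow interval. After thinning to 3700 UMIs, 40.0% of the 5874 spleen cells kept (38.8 to 41.3%) held a Lars2 UMI. In bone marrow 79.7% of the 9081 cells kept did (78.9 to 80.5%, exact Clopper-Pearson). Before thinning the shares were 68.8% and 92.3% of all cells. Every cell type uses these enzymes, so no type that lacks them was at hand as a background for such shares.

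Lars2 (chr9:123366927-123462666, + strand, GENCODE M21) moved with genes of a ribosomal RNA region. Gm42418, which RefSeq lists as a synonym of the 18S rRNA-related pseudogene Rn18s-rs5 on chromosome 17, stood at 5852 CPM in spleen and 21426 CPM in bone marrow. AY036118, which overlaps it on the other strand, stood at 260 and 510 CPM. Across the 16 pairs of library and cluster, the log2 CPM of Lars2 and Gm42418 had a Pearson r of 0.97. Within a library it was 0.86 over the 8 spleen clusters and 0.53 over the 8 bone marrow clusters. The points of a library share their preparation and depth, so these values are a description. The next highest r with Gm42418 over the 16 points in the set was 0.59, for Cars2, and Gars had -0.23. Within a library Cars2 had -0.19 in spleen and -0.03 in bone marrow. Over the bone marrow clusters Farsa had -0.89, larger in size than the 0.53 of Lars2 and of the opposite sign. The longest run of bases that any of the 9 annotated Lars2 transcripts shares with Gm42418 is 12 on the same strand and 11 on the opposite one. The part of the ribosomal RNA region genes in the Lars2 difference was not tested.

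**Figure D3:**
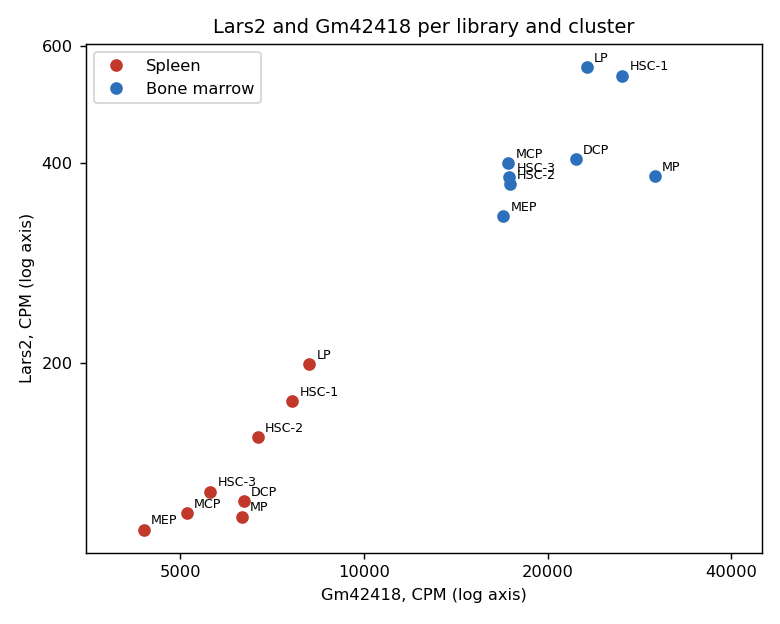
Lars2 against Gm42418, both in CPM on log axes, 1 point per cluster in spleen (red) and bone marrow (blue). The spleen points lie at 112 to 199 CPM of Lars2 and the bone marrow points at 333 to 557, with Gm42418 at 4359 to 8136 CPM in spleen and 16934 to 29994 in bone marrow.

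**Figure D4:**
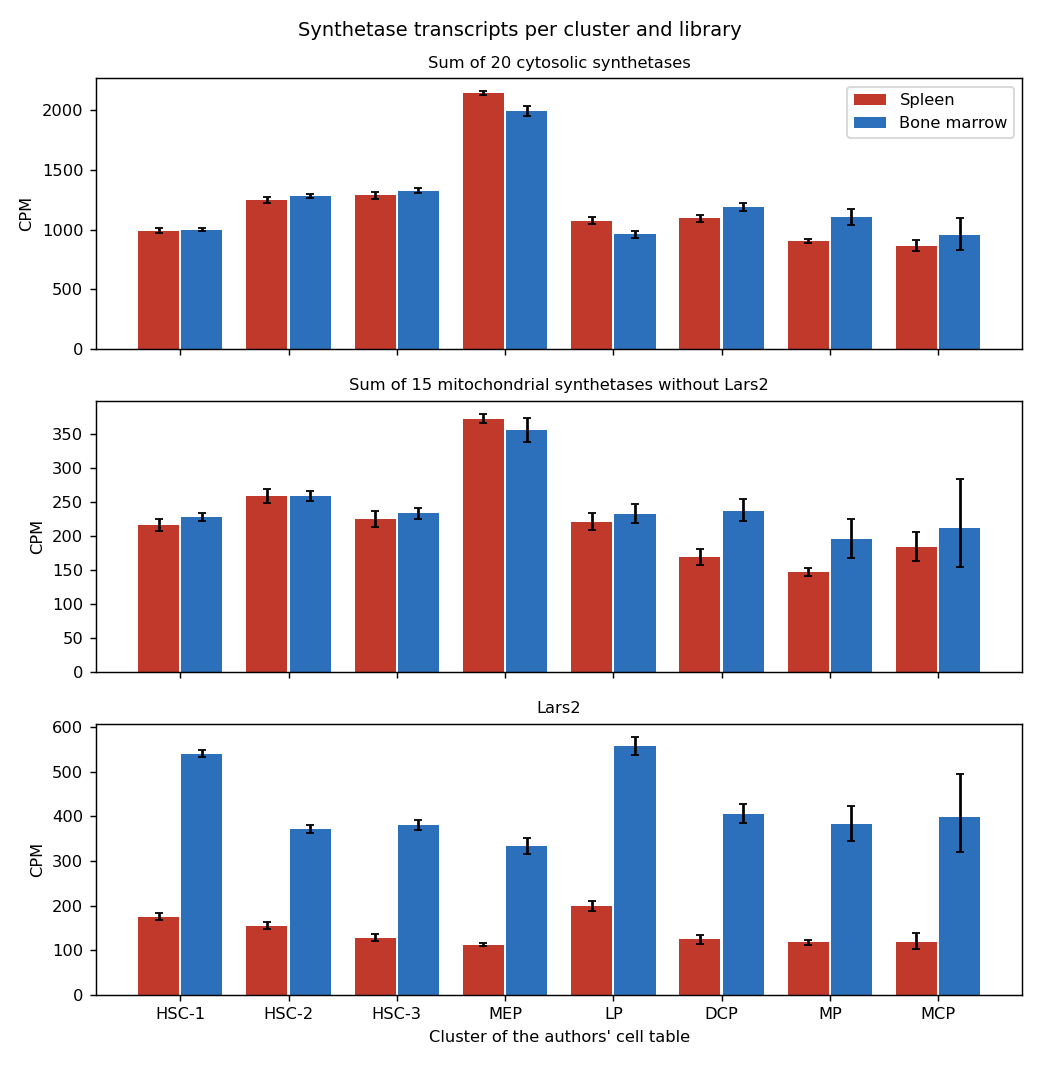
Summed CPM of the 20 cytosolic synthetases (top), of the 15 mitochondrial ones without Lars2 (middle) and of Lars2 (bottom) in each cluster of the spleen (red) and bone marrow (blue) libraries, with exact Poisson 95% intervals; MCP had 36 bone marrow cells. MEP leads the upper panels in both tissues, and Lars2 is lower in spleen in all 8 clusters.

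The next contrast set cluster MEP against cluster HSC-1 in each tissue. In HSC-1 stem cell markers summed to 841 CPM in spleen and 1506 CPM in bone marrow, and dendritic cell markers to 13820 and 740 CPM. The clusters were drawn by the authors from these cells' own transcripts, so what follows describes them and tests nothing. In spleen the cytosolic sum was 2137 CPM in MEP and 991 CPM in HSC-1, a ratio of 2.16 (2.11 to 2.20). In bone marrow it was 1990 CPM in MEP and 999 CPM in HSC-1, a ratio of 1.99 (1.94 to 2.04). Per cell the cytosolic members gave 75.8 UMIs in MEP and 7.0 UMIs in HSC-1 of the spleen, and 23.4 UMIs in MEP and 5.25 UMIs in HSC-1 of the bone marrow. MEP cells were also deeper, with a median of 36084 UMIs per spleen cell and 11230 per bone marrow cell. Of the 20 cytosolic members, 18 were at least 1.5-fold higher in MEP in spleen, against 25% of 8393 genes (36.7% lower), and 17 in bone marrow, against 19.4% of 8524 genes (32.3% lower). The counts were 18 and 17 without the labelled immune cells as well, against 24.5% of genes higher and 37.5% lower in spleen and 19.4% and 32.3% in bone marrow. The median log2 ratio was 1.23 in spleen and 1.16 in bone marrow, against -0.18 and -0.19 for all genes. The cytosolic sum was also above HSC-1, by less, in HSC-2 (1.26-fold in spleen, 1.28-fold in bone marrow) and HSC-3 (1.30-fold and 1.33-fold). In DCP, LP and MP it lay between 0.912 and 1.19 times the HSC-1 sum.

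Mars had the largest ratio in spleen, at 50.4 CPM in MEP and 10.8 CPM in HSC-1, 4.68-fold (3.87 to 5.69), and stood at 38.8 and 11.3 CPM in bone marrow, 3.45-fold (2.83 to 4.19). Hars was 4.25-fold higher in spleen (3.73 to 4.88) and 3.02-fold in bone marrow (2.62 to 3.47). Gars, at 147 CPM in MEP and 37.6 CPM in HSC-1 of the spleen, was 3.91-fold higher (3.53 to 4.33), and 3.77-fold in bone marrow (3.39 to 4.20). These 3 genes had the largest ratios in spleen. In bone marrow Lars, at 3.02-fold there and 2.44-fold in spleen, was level with Hars. Aars was 3.13-fold higher in spleen and 2.91-fold in bone marrow.

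Vars and Qars stayed near their HSC-1 level. Vars stood at 177 CPM in MEP and 157 CPM in HSC-1 of the spleen, 1.125-fold (1.07 to 1.19), and 1.12-fold in bone marrow (1.04 to 1.21). Qars was 1.38-fold higher in spleen (1.26 to 1.515) and 1.14-fold in bone marrow (1.00 to 1.30). Outside MEP, Qars was highest in DCP in both tissues, at 84.2 CPM in spleen and 81.1 CPM in bone marrow, and Vars was highest in LP in spleen and in DCP in bone marrow. The other 18 cytosolic members in spleen had their highest level in MEP, and so did 17 of 20 in bone marrow. The phenylalanine subunits parted again, Farsb at 3.35-fold (2.89 to 3.88) and Farsa at 1.71-fold (1.57 to 1.86) in spleen, and 2.38-fold (2.03 to 2.77) and 1.38-fold (1.23 to 1.55) in bone marrow.

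**Figure D5:**
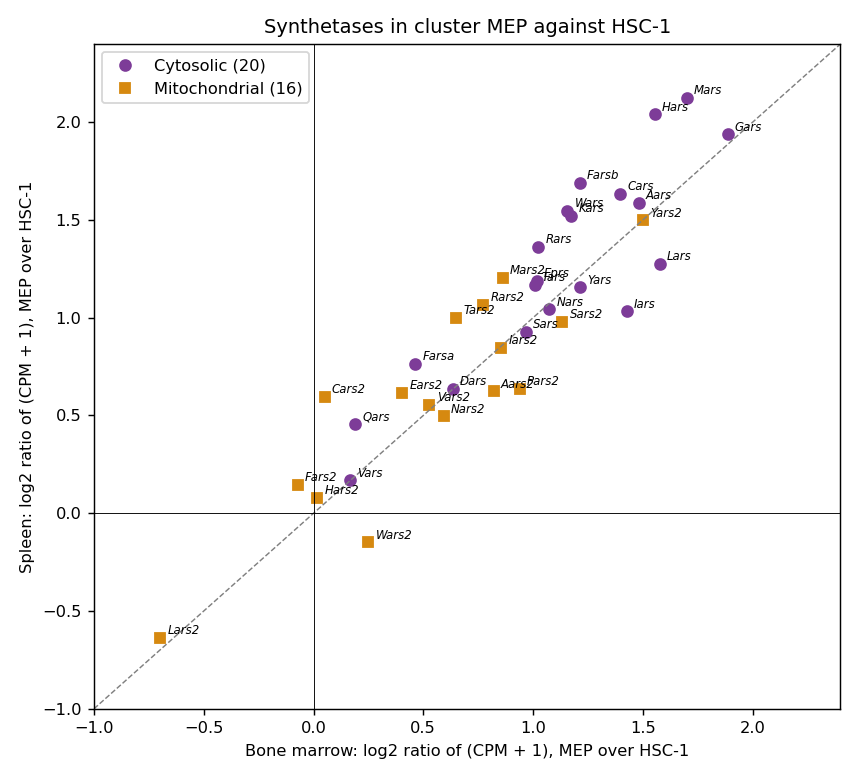
Log2 ratio of MEP over HSC-1 in spleen (vertical) and in bone marrow (horizontal) for the 20 cytosolic (purple circles) and 16 mitochondrial (orange squares) synthetases; the dashed line marks equal ratios. Mars, Hars and Gars lie at the upper right, Vars and Qars near 0 on both axes, and Lars2 at the lower left.

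Known ATF4 targets overlapped the other cytosolic enzymes only in part in their ratios. All 12 on the list were at least 1.5-fold higher in MEP in both tissues, against 25% of all genes in spleen and 19.4% in bone marrow, with medians of 1.23 in spleen and 1.30 in bone marrow on the log2 scale. The 8 others had 6 in spleen and 5 in bone marrow, with medians of 1.06 and 0.83. Hars, Kars, Farsb and Rars, which are not on the list, lay between 2.06-fold and 4.25-fold over both tissues. Vars, Qars, Dars and Farsa, also not on it, lay between 1.12-fold and 1.71-fold. Sars was the lowest on the list, at 1.92-fold in spleen and 1.97-fold in bone marrow. For HSC-3 over HSC-1, 5 of 12 listed and 1 of 8 others passed 1.5-fold in spleen, against 899 of 8651 genes. In bone marrow these were 8 of 12 and 0 of 8, against 824 of 8735 genes. The 8 enzymes of the multisynthetase complex and the 12 cytosolic ones outside it overlapped widely, with medians of 1.23 and 1.36 in spleen.

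Mitochondrial enzymes shared the MEP difference in part. Without Lars2 their sum was 372 CPM in MEP and 215 CPM in HSC-1 of the spleen, a ratio of 1.73 (1.65 to 1.81), and 355 and 227 CPM in bone marrow, a ratio of 1.56 (1.48 to 1.66). Of 11 measured members, 6 were at least 1.5-fold higher in each tissue, against 25% of all genes in spleen and 19.4% in bone marrow. Without the labelled immune cells the counts were 5 in spleen and 6 in bone marrow. Yars2 was 2.98-fold higher in spleen (2.48 to 3.61) and 3.07-fold in bone marrow (2.38 to 3.93), Mars2 2.44-fold and 1.90-fold, and Rars2 2.17-fold and 1.75-fold. Hars2 (1.06-fold and 1.01-fold) and Fars2 (1.11-fold and 0.948-fold) were close to their HSC-1 level. Lars2 was lower in MEP in both tissues, at 0.642 times its HSC-1 level in spleen (0.607 to 0.679) and 0.616 times in bone marrow (0.582 to 0.651).

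The reference labels of the cell table divide red cell progenitors further, into Ery-1, Ery-2 and Ery-3. In spleen the cytosolic sum was 1361 CPM in Ery-1 (137 cells), 1823 CPM in Ery-2 (134 cells) and 2239 CPM in Ery-3 (628 cells), and the intervals did not touch. In bone marrow it was 1543 CPM in Ery-1 (125 cells) and 2087 CPM in Ery-2 (131 cells). Ery-3 was not among the labels with at least 100 cells there. Within Ery-1 and within Ery-2 the spleen sum was thus the lower, whereas over all of MEP it was the higher, at 2137 against 1990 CPM. The part of the makeup of labels in the MEP ratio was not tested. Gars stood at 60.2, 114 and 158 CPM in spleen Ery-1, Ery-2 and Ery-3, and Hars at 39.1, 62.4 and 101 CPM. Vars did not follow, at 185, 180 and 175 CPM with overlapping intervals. Between Ery-1 and Ery-3 of the spleen, 16 of 20 cytosolic members were at least 1.5-fold higher in Ery-3, against 22.2% of 7702 genes (23.6% lower), and 1 of 13 measured mitochondrial members. Between Ery-1 and Ery-2 of the bone marrow, 6 of 20 cytosolic members were at least 1.5-fold higher in Ery-2, against 12.3% of 7831 genes (20.2% lower). The growth genes, such as Myc and the nucleolar protein gene Ncl, summed to 3025, 4558 and 5752 CPM over the same 3 labels, and the mitosis genes to 434, 1142 and 1680 CPM. Their part in the order was not tested. At the low end, the sum was 634 CPM in the spleen cells labelled Ba-1 (112 cells) and 939 CPM in those labelled Mono-3 (1914 cells), against 1097 CPM in those labelled HSC-1.

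Proteins that work beside the synthetases were read as a further group. The scaffolds of the multisynthetase complex were higher in spleen over all cells. Eef1e1 stood at 63.3 CPM in spleen and 30.8 CPM in bone marrow, a ratio of 2.05 (1.96 to 2.16). Aimp2 stood at 37.1 and 22.9 CPM, a ratio of 1.62 (1.53 to 1.72), and Aimp1 at 203 and 178 CPM, a ratio of 1.14 (1.11 to 1.17). Unlike the enzymes they hold, Eef1e1 and Aimp2 were also past 1.5-fold within MEP, at ratios of 1.57 and 1.62. Of the 12 genes of tRNA charging and handling, these scaffolds included, 10 were measured. Of these, 2 were at least 1.5-fold higher and 0 lower, against 10.8% and 18.3% of all genes. The same shares apply to the next lists. All these lists are short, and their counts were not read as a result about them. Pstk, a kinase on the route to selenocysteine, was the lowest at 22.5 CPM in spleen and 29.6 in bone marrow. Of 8 measured partners in mitochondria, Tsfm, an elongation factor, was the 1 past 1.5-fold, at 51.7 CPM in spleen and 27.8 CPM in bone marrow, a ratio of 1.86 (1.77 to 1.96). Mtif2, an initiation factor, was lowest at 1.09 (1.04 to 1.15). None of 5 cytosolic elongation factors passed 1.5-fold, from Eef2 at 0.945 to Eef1d at 1.48.

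Of 11 measured genes of the amino acid response, 3 were at least 1.5-fold higher in spleen and 2 lower, against 10.8% and 18.3% of all genes. Asns, which makes asparagine, stood at 66.2 CPM in spleen and 12.1 CPM in bone marrow, a ratio of 5.45 (5.08 to 5.86), and Mthfd2, of mitochondrial folate metabolism, at 41.1 and 16.7 CPM. Atf4 itself stood at 123 CPM in spleen and 190 CPM in bone marrow, and its stress target Ddit3 at 23.0 and 40.0 CPM. Within MEP, Asns stood at 171 and 106 CPM and Atf4 at 135 and 154 CPM.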

How the data were processed

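The deposited tables hold counts: UMI counts of 31053 genes per cell, not normalized. The authors used Cell Ranger 3.1.0 and mm10, at about 27000 reads per cell, per the labels of the series. The submitters' processing notes name Seurat 3.1.5 and mm9, which conflicts, and the kit version differs between the labels; the filter on cells and the handling of doublets are not given in the sources used here. The deposited integrated values were not used. Symbols came from a gene name table that pairs 30934 identifiers with a symbol.

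All deposited cells were kept. UMIs were summed over a library, cluster or label and scaled to CPM. Sums have exact Poisson intervals, ratios the exact interval of 2 Poisson counts, both at 95% and tested on simulated counts; PCR and capture error lie outside them. Log2 ratios are of (CPM + 1), read where the mean of both sides was at least 10 CPM, and 1.5-fold is a limit of size, not a test. Clusters compared between the libraries needed 100 cells in each, and labels 100 cells in their own library. MCP, in the figures and correlations by cluster, and DCP without the labelled immune cells were given below that limit. edgeR 4.0.16 gave TMM factors for 1 alternative, and no model was fitted. Python 3.11.15, numpy 2.4.6, scipy 1.17.1 and pandas 2.3.3 were used.

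Any member could be named, with values for those past 1.5-fold and the 3 highest and 3 lowest ratios of each compartment, the 2 highest and 2 lowest per cluster and per other list; Myc, Ncl, Ube2c, Kit, Ly6a, the ribosomal RNA region genes and further members were named after their values were seen. The members and lists were chosen with earlier results of these data known. The promoter site of 1 member is not reported here.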

Additional observations from a re-analysis of the deposited data

Results flagged for a closer look

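The summed cytosolic synthetases had ratios of spleen over bone marrow on opposite sides of 1 in different clusters, with intervals that exclude 1. They were higher in spleen in LP (1.12) and MEP (1.07) and lower in spleen in HSC-2 (0.978), HSC-3 (0.970), DCP (0.921) and MP (0.817). The interval of HSC-2 reached 1.00, and HSC-3 turned to 1.10 (1.06 to 1.13) without the cells labelled as mature immune cells. Without them DCP stood at 1.02 (0.946 to 1.10) over the 46 spleen cells left, and MP kept 4 spleen cells. LP kept 96 of its 693 spleen cells and 757 of its 770 bone marrow cells. Under the reference labels Ery-1 and Ery-2 the cytosolic sum was lower in spleen than in bone marrow, unlike in MEP. With 1 library per tissue the difference between clusters was not tested.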

How the results depend on the processing

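No paired analysis was possible because each tissue gave 1 library. The 2 cytosolic members at least 1.5-fold higher became 8 with TMM scaling, 4 with ratios centred on the median gene, 10 without cells labelled as mature immune cells, and 0 without MEP, with both libraries given the same makeup of clusters (clusters weighted alike) or with cells thinned to 3700 UMIs. The 1 mitochondrial member higher became 2 without labelled immune cells and 0 without MEP, with clusters weighted alike or at a mean of at least 20 CPM, which Yars2 does not reach. The cytosolic median log2 ratio was 0.53 with TMM scaling, 0.61 without labelled immune cells, 0.0563 when thinned, and turned to -0.0328 with clusters weighted alike and -0.12 without MEP. The mitochondrial median was 0.34 with TMM scaling and turned to -0.11 with clusters weighted alike, -0.24 without MEP and -0.0625 when thinned. The median of all genes was -0.06 with clusters weighted alike, -0.15 without MEP and -0.11 when thinned. The cytosolic median lay above it in each of these settings. The mitochondrial median lay below it with clusters weighted alike and without MEP, and above it when thinned. The cytosolic sum ratio was 1.41 with TMM scaling, 1.47 without labelled immune cells, 1.05 when thinned and 1.197 with a total that leaves out Gm42418 and AY036118, and turned to 0.984 with clusters weighted alike and 0.923 without MEP. The mitochondrial sum ratio was 0.664 with TMM scaling, 0.548 with clusters weighted alike, 0.5001 without MEP, 0.664 without labelled immune cells, 0.529 when thinned and 0.565 with the reduced total, and turned to 1.08 without Lars2. MEP over HSC-1 for the cytosolic sum was 2.03 thinned and 2.10 as a mean of per-cell CPM in spleen, and 1.88 by each in bone marrow. Leaving out MEP and the labelled immune cells together gave 0 cytosolic members higher, a cytosolic median of 0.0472, and sum ratios of 1.03 for cytosolic and 0.607 for mitochondrial members. The other 44 values, among them the counts of members lower under each alternative run and the counts in MEP over HSC-1 without labelled immune cells, kept their direction and moved by less than the counting interval, or, for counts, 1.5 times. The total without ribosomal RNA region genes, the median centring, the set without Lars2, the joint removal and the last of these counts were chosen after seeing the data. Thinning gives each kept cell the same number of UMIs, and MEP made up 891 of the 5874 spleen cells kept. Leaving out MEP removes 36.8% of spleen UMIs. Beyond that the cause was not tested. TMM scaling moved the median gene to a log2 ratio of 0.10, against -0.11. With 1 library per tissue, members under 10 CPM were limited by depth.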
